A study of Homo sapiens with 12 samples.

Results

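The Wnt pathway feedback genes are 10 named genes of the Wnt/β-catenin pathway, found among the 48162 genes of the read count table by their gene symbols. The inhibitors were AXIN2, DKK1, RNF43, ZNRF3 and NKD1. The receptors and activators were LGR4, LGR5, FRAT1, FRAT2 and TCF7. All 10 had a row in the table and passed the filter on low counts in the fit, which left 15630 genes. RNA was measured in T84, a human colon carcinoma cell line used as a model of the crypt epithelium. Cells grown to a confluent layer in multiwell plates were moved from medium into Hanks buffered saline, so every group, the pH 7.4 control included, was held in saline, and total RNA was taken with Trizol for Illumina libraries. The groups were pH 6.0 for 6 h, pH 7.4 for 6 h, pH 6.0 for 3 h and pH 7.4 for 3 h, with 3 libraries each, and the question was how epithelial cells respond to acidosis. No group kept in culture medium is analysed here, so no comparison below separates saline from medium.

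Wnt ligands bind a Frizzled receptor and LRP5 or LRP6, and the signal stops a destruction complex of AXIN, APC and the kinase GSK3 from marking β-catenin for breakdown. Stable β-catenin then activates genes together with TCF and LEF factors, and several of those genes act back on the pathway: AXIN2, NKD1, RNF43, ZNRF3 and DKK1 dampen it, while LGR5 binds R-spondins and so shields Frizzled receptors from RNF43 and ZNRF3. In the intestine this circuit maintains the crypt stem cells, of which LGR5 is a marker. LGR4, FRAT1 and FRAT2 are components of the pathway that are not standard readouts of β-catenin activity.

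Libraries held 15383041 to 20525403 counts at pH 6.0 for 6 h, 16574741 to 18921141 at pH 7.4 for 6 h, 13912532 to 18205946 at pH 6.0 for 3 h and 16865263 to 24331032 at pH 7.4 for 3 h. Whether the 3 libraries of each group represent separate cultures is not stated, so the p-values cover no more than library-to-library spread, possibly technical. The 9 epithelial markers summed to 9022 to 9631 CPM (TMM-scaled CPM, the read count relative to library size) at pH 6.0 for 6 h, 7081 to 7268 CPM at pH 7.4 for 6 h, 8337 to 8516 CPM at pH 6.0 for 3 h and 7300.3 to 8038 CPM at pH 7.4 for 3 h. The 8 fibroblast, 7 leukocyte and 4 endothelial markers summed to at most 32.1, 12.4 and 13.7 CPM in any library, with 1 leukocyte marker at 0 in all. The fibroblast maximum came from replicate 2 of pH 7.4 for 6 h, with 260 reads of COL1A1, 107 of COL1A2 and 58 of COL3A1. No other library held more than 26, 7 and 20 reads of these. The epithelial sum was higher at pH 6.0 than at pH 7.4 at both times, and its part in the results below was not tested. Its largest marker, KRT8, held 4394 to 4589 CPM at pH 6.0 for 6 h and 2886 to 2943 CPM at pH 7.4 for 6 h. CDH1 and KRT20 went the other way at 6 h, with no overlap. By the test used below, 5 of the 9 markers were higher and 2 lower at 6 h, beside 21.9% and 25.1% of all genes tested. At 3 h 2 were higher and 0 lower, beside 9.53% and 9.26%. In such bulk samples, fewer cells of a type and less RNA per cell cannot be told apart.

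Promoter sequences are shown for DKK1, FRAT1 and FRAT2 because these genes fell at both times. They are RefSeq sequences on GRCh38.p14, the 250 bases before the annotated start, in the direction of transcription. RefSeq promoters were found for 6 of the 10 genes. AXIN2, ZNRF3, NKD1 and LGR5 were not in the promoter table. Capitals mark the words found by a search of both strands for the TCF/LEF words (CTTTG followed by AA, by AT, by TA or by TT), for the full cAMP response element or CRE (TGACGTCA), for the shorter word TGACG that the CRE contains, and for a TATA word (TATAAA).
DKK1, chr10:52314031-52314280, plus strand: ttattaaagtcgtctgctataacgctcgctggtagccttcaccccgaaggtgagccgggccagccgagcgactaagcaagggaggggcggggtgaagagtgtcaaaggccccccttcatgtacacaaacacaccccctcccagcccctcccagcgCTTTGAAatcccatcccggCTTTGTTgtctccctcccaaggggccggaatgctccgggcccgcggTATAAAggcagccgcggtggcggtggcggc
FRAT1, chr10:97319021-97319270, plus strand: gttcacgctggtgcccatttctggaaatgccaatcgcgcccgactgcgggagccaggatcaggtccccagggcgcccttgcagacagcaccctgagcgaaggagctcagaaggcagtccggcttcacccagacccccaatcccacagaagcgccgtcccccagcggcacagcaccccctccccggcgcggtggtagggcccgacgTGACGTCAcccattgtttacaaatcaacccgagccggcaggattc
FRAT2, chr10:97334730-97334979, minus strand: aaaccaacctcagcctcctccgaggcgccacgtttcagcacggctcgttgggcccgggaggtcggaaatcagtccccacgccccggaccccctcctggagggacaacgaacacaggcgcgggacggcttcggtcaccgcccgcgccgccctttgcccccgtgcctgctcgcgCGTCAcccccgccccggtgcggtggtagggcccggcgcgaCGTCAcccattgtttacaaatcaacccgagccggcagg
The DKK1 promoter held TCF/LEF words 95 and 76 bases before the start and TATAAA 30 bases before it. The FRAT1 promoter held a full CRE 45 bases before the start. The FRAT2 promoter held TGACG on the reverse strand, read as CGTCA above, 78 and 38 bases before the start.

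The FRAT promoters are near copies where they lie closest to the start. They share the 40-base run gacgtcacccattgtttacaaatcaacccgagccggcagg, at -44 to -5 in FRAT1 and -40 to -1 in FRAT2, which 2 of 35116 RefSeq promoters held, these 2 alone. Aligned at that run, their last 60 bases were 96.7% identical, and the whole 246 aligned bases 51.2%. Counted from 1 at the 5′ end of the CRE of FRAT1, the aligned FRAT2 bases CGACGTCA carried the substitution T1C, so FRAT2 lacks the full word. Of 35116 promoter windows of this length, 12% held a TCF/LEF word, 1.65% the full CRE, 21.2% TGACG and 10.7% TATAAA. Among the other windows found, a second TCF7 start held a TCF/LEF word 50 bases before it, its first start held TATAAA on the reverse strand, and the windows of RNF43 and LGR4 held none of the words. A word match is a description of the letters and not evidence of binding.

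At 6 h, 8 of the 10 genes were lower at pH 6.0 than at pH 7.4, 1 was higher and 1 did not pass the test. Of those 8, RNF43 and TCF7 passed by a small margin. Their calls held in only 3 and 2 of the 12 fits that left out 1 library. After correcting for the length and GC content of genes their values were 0.03 and 0.01, and neither passed. Over all genes tested, 47.0% passed in either direction at 6 h, 25.1% lower and 21.9% higher. The median log2 fold change of the 10 genes was -0.77, beside -0.00 over all genes tested. The steepest falls were those of FRAT1, AXIN2, DKK1 and FRAT2, which held places 31, 39, 219 and 293 from the lowest fold change of 15630. At 3 h, 4 of the 10 were lower and 1 higher, where 18.8% of all genes tested passed, 9.26% lower and 9.53% higher. FRAT1, DKK1, AXIN2 and FRAT2 held places 56, 64, 122 and 278 from the lowest at that time. Tests are edgeR quasi-likelihood tests with Benjamini-Hochberg adjustment over all 15630 genes, passed at an adjusted p under 0.05, and errors of log2 fold changes are standard errors.

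**Figure D1:**
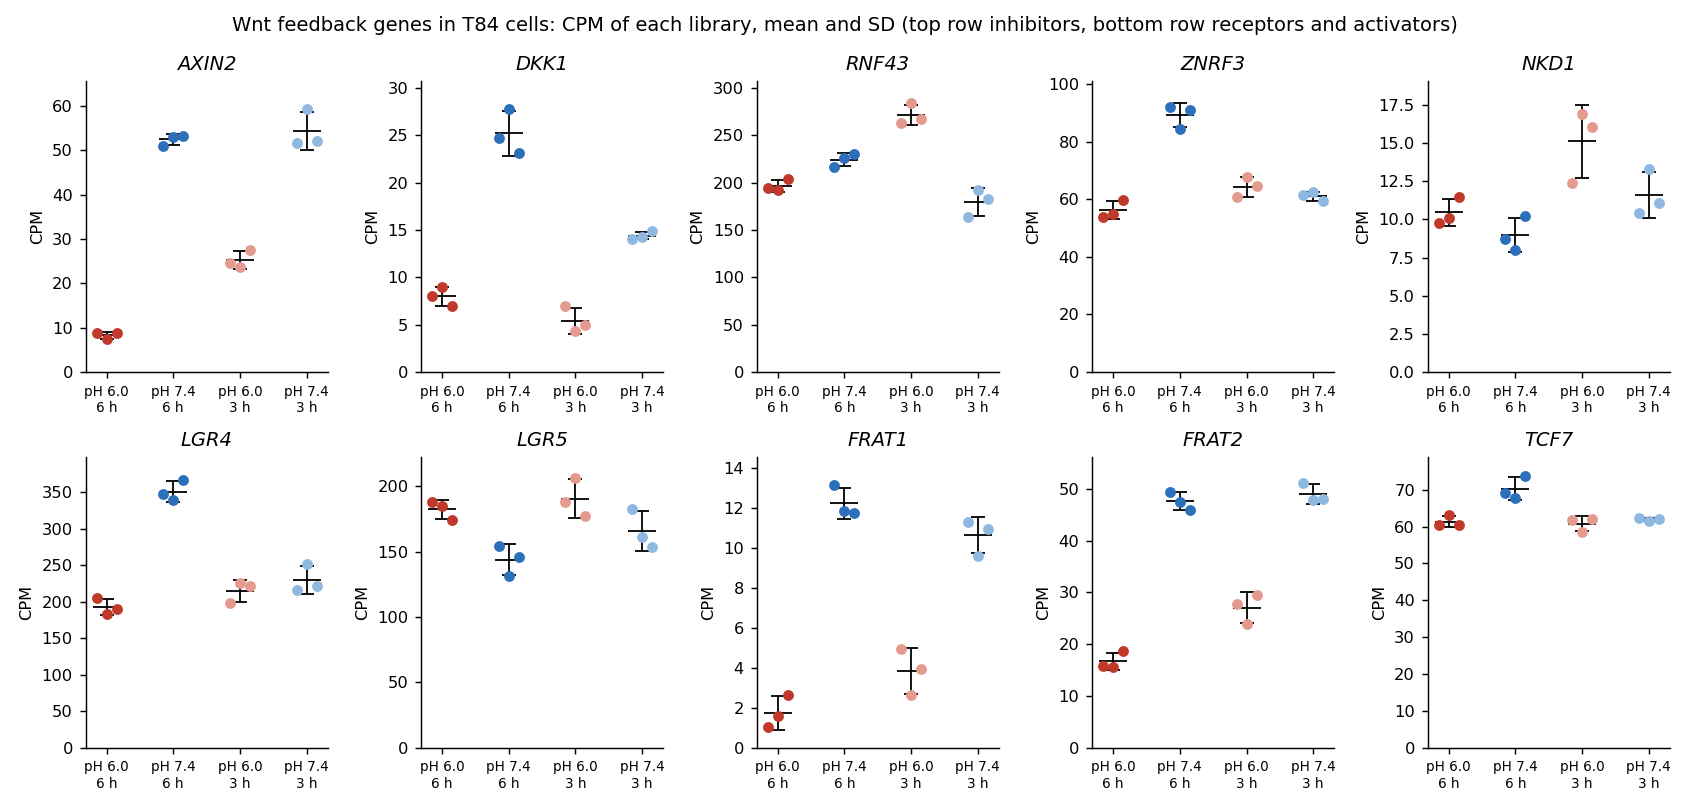
CPM (vertical axis, from 0) of each of the 10 genes in the 12 libraries, by group along the horizontal axis, with points for libraries and black bars for the mean and SD (n = 3). AXIN2, FRAT1 and FRAT2 stepped down from 3 h to 6 h at pH 6.0 while their pH 7.4 groups did not pass the test of time, and LGR4 and ZNRF3 stood apart mainly as high pH 7.4 values at 6 h.

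DKK1 is the secreted inhibitor that binds LRP5 and LRP6 and keeps them from the Wnt-Frizzled complex. It measured 8.02, 9.0 and 7.03 CPM at pH 6.0 for 6 h, against 24.7, 27.8 and 23.2 CPM at pH 7.4 for 6 h. It measured 6.98, 4.35 and 4.95 CPM at pH 6.0 for 3 h, against 14.1, 14.3 and 14.9 CPM at pH 7.4 for 3 h. All pH 6.0 libraries lay below all pH 7.4 libraries at each time. The fall was -1.65 ± 0.14 at 6 h (3.13-fold lower, edgeR adjusted p = 3.71e-09) and -1.39 ± 0.15 at 3 h (2.62-fold lower, edgeR adjusted p = 1.13e-06). DKK1 was the one gene of the 4 steepest whose pH effect was not shown to differ between the times (difference -0.26 ± 0.21, edgeR adjusted p = 0.391).

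AXIN2 is the scaffold of the destruction complex that β-catenin itself induces, and is the standard readout of pathway activity. It measured 8.83, 7.43 and 8.73 CPM at pH 6.0 for 6 h, against 51.1, 53.1 and 53.2 CPM at pH 7.4 for 6 h. It measured 24.5, 23.7 and 27.5 CPM at pH 6.0 for 3 h, against 51.7, 59.3 and 52.2 CPM at pH 7.4 for 3 h. The groups did not overlap at either time, and the pH 6.0 libraries at 6 h lay below those at 3 h. The fall was -2.66 ± 0.11 at 6 h (6.32-fold lower, edgeR adjusted p = 1.12e-14) and -1.11 ± 0.10 at 3 h (2.15-fold lower, edgeR adjusted p = 3.23e-08). The pH effect at 6 h differed from that at 3 h by -1.55 ± 0.14 (edgeR adjusted p = 1.85e-07).

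RNF43 and ZNRF3 are paired membrane ubiquitin ligases that remove Frizzled receptors from the cell surface, and at 3 h RNF43 passed the test while ZNRF3 did not. RNF43 measured 263, 284 and 267 CPM at pH 6.0 for 3 h, against 163, 192 and 182 CPM at pH 7.4 for 3 h, a rise of 0.60 ± 0.08 (1.51-fold, edgeR adjusted p = 8.57e-06). It was the only gene of the 10 called higher at that time. At 6 h RNF43 measured 194, 192 and 204 CPM at pH 6.0, against 216, 226 and 230.0 CPM at pH 7.4. These groups were close but did not overlap, and the difference of -0.19 ± 0.08 passed by a small margin (edgeR adjusted p = 0.0440). That call held in only 3 of the 12 fits that left out 1 library (adjusted p from 0.0347 to 0.208), and after correcting for the length and GC content of genes the difference was 0.03 (adjusted p = 0.716). The pH effect at 6 h minus that at 3 h was -0.79 ± 0.11 (edgeR adjusted p = 2.09e-05).

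ZNRF3 measured 53.9, 55.0 and 59.8 CPM at pH 6.0 for 6 h, against 92.0, 84.4 and 91.2 CPM at pH 7.4 for 6 h. It measured 60.8, 67.8 and 64.5 CPM at pH 6.0 for 3 h, against 61.3, 62.6 and 59.4 CPM at pH 7.4 for 3 h. The groups were fully apart at 6 h and overlapped at 3 h. The fall was -0.67 ± 0.08 at 6 h (1.59-fold lower, edgeR adjusted p = 5.13e-07), or -0.39 after the length and GC correction. At 3 h the difference was 0.07 ± 0.08 and did not pass (edgeR adjusted p = 0.556). The pH effects differed between the times by -0.74 ± 0.11 (edgeR adjusted p = 6.48e-05), or -0.43 after that correction.

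NKD1 binds Dishevelled and is an intracellular inhibitor. It measured 9.78, 10.1 and 11.5 CPM at pH 6.0 for 6 h, against 8.72, 8.0 and 10.2 CPM at pH 7.4 for 6 h. It measured 12.4, 16.9 and 16.03 CPM at pH 6.0 for 3 h, against 10.4, 13.3 and 11.1 CPM at pH 7.4 for 3 h. The groups overlapped at both times, and NKD1 was the only one of the 5 inhibitors with no call for pH at either time. The differences were 0.22 ± 0.15 at 6 h (edgeR adjusted p = 0.240) and 0.38 ± 0.14 at 3 h (edgeR adjusted p = 0.0648). After the length and GC correction both were called higher, at 0.38 and 0.39 (adjusted p = 0.0299 and 0.0406). The 3 h difference was also called in 2 of the 12 fits without 1 library.

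LGR4 and LGR5 are the receptors for R-spondins, and they moved in opposite directions at 6 h. LGR4 measured 205, 183 and 190.2 CPM at pH 6.0 for 6 h, against 347, 339 and 367 CPM at pH 7.4 for 6 h. LGR5 measured 188, 185 and 174 CPM at pH 6.0 for 6 h, against 154, 131 and 146 CPM at pH 7.4 for 6 h. Neither receptor's groups overlapped at 6 h. LGR4 was 1.82-fold lower (-0.87 ± 0.08, edgeR adjusted p = 1.47e-08) and LGR5 was 1.27-fold higher (0.34 ± 0.09, edgeR adjusted p = 0.00214). LGR5 was the only gene of the 10 called higher at 6 h.

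At 3 h neither receptor passed the test. LGR4 measured 198, 225 and 222 CPM at pH 6.0, against 217, 252 and 221 CPM at pH 7.4 (-0.10 ± 0.08, edgeR adjusted p = 0.428). LGR5 measured 188, 206 and 177 CPM at pH 6.0, against 182, 161 and 153 CPM at pH 7.4 (0.20 ± 0.08, edgeR adjusted p = 0.102). The groups overlapped for both receptors. The pH effect on LGR4 differed between the times by -0.77 ± 0.11 (edgeR adjusted p = 5.68e-05), and that on LGR5 was not shown to differ (0.14 ± 0.12, edgeR adjusted p = 0.406). After the length and GC correction the LGR5 difference was 0.33 and was called (adjusted p = 0.0230).

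FRAT1 and FRAT2 bind GSK3 and can draw it away from AXIN, and they fell at both times. FRAT1 was the scarcest gene of the set at pH 6.0, at 1.02, 1.57 and 2.66 CPM at 6 h, which were 15, 31 and 39 reads, against 13.1, 11.9 and 11.7 CPM at pH 7.4 for 6 h. At 3 h it measured 4.96, 2.67 and 3.94 CPM at pH 6.0, against 11.3, 9.62 and 11.0 CPM at pH 7.4. Its groups did not overlap at either time. FRAT1 was 7.04-fold lower at 6 h (-2.81 ± 0.23, edgeR adjusted p = 2.24e-09) and 2.72-fold lower at 3 h (-1.44 ± 0.21, edgeR adjusted p = 4.14e-05), with the largest standard error of the 10 genes.

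FRAT2 measured 15.8, 15.7 and 18.6 CPM at pH 6.0 for 6 h, against 49.5, 47.4 and 46.0 CPM at pH 7.4 for 6 h. It measured 27.8, 23.9 and 29.5 CPM at pH 6.0 for 3 h, against 51.2, 47.8 and 48.2 CPM at pH 7.4 for 3 h. Its groups were fully apart at both times, with the pH 6.0 libraries lower at 6 h than at 3 h. FRAT2 was 2.86-fold lower at 6 h (-1.52 ± 0.10, edgeR adjusted p = 6.14e-11) and 1.81-fold lower at 3 h (-0.86 ± 0.10, edgeR adjusted p = 1.86e-06). The pH effect at 6 h differed from that at 3 h by -1.37 ± 0.32 for FRAT1 (edgeR adjusted p = 0.00300) and by -0.66 ± 0.14 for FRAT2 (edgeR adjusted p = 0.00147). The annotated transcripts of the pair share 51 stretches of 50 bases, 1.93% of those of FRAT1 and 2.36% of those of FRAT2, and sharing of reads between them was not tested, the read length and counting program being unknown here.

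TCF7 encodes TCF1, a DNA-binding partner of β-catenin. It measured 60.5, 63.2 and 60.4 CPM at pH 6.0 for 6 h, against 69.3, 67.7 and 73.7 CPM at pH 7.4 for 6 h. It measured 61.7, 58.4 and 62.2 CPM at pH 6.0 for 3 h, against 62.2, 61.5 and 62.0 CPM at pH 7.4 for 3 h. Apart from the pH 7.4 group at 6 h, the libraries held much the same level. The difference at 6 h was -0.19 ± 0.08 (edgeR adjusted p = 0.0392), a call that held in only 2 of the 12 fits without 1 library (adjusted p from 0.0422 to 0.201), and the value was 0.01 after the length and GC correction (adjusted p = 0.897). At 3 h it was -0.03 ± 0.08 (edgeR adjusted p = 0.845).

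**Figure D2:**
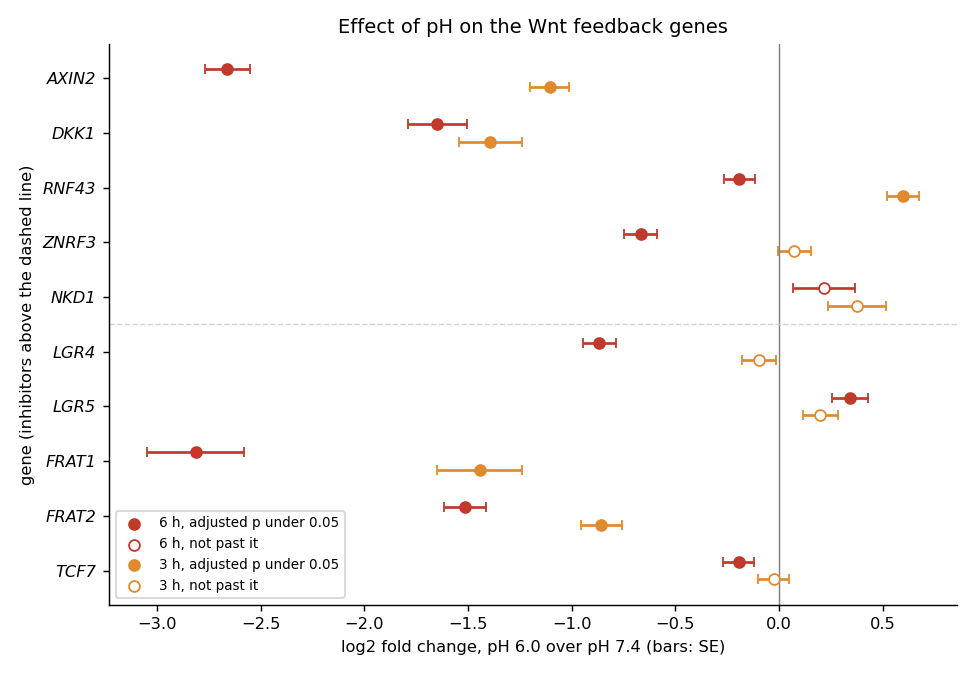
Log2 fold change of pH 6.0 over pH 7.4 (horizontal axis) for each gene (vertical axis, inhibitors above the dashed line) at 6 h in red and 3 h in orange, with standard errors and filled points for an adjusted p under 0.05. AXIN2 and FRAT1 lie farthest left at 6 h (-2.66 and -2.81), RNF43 is right of 0 at 3 h (0.60), and LGR5 is the one filled point right of 0 at 6 h (0.34).

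Some of these counts cannot be assigned to 1 gene alone, since the use of strand in counting is not given in the sources used here. In a GENCODE 29 annotation of GRCh38, used here only for overlaps and names, the antisense gene TSPOAP1-AS1 covers 20.3% of the exonic bases of RNF43, and it held 0.341 to 3.71 CPM, against group means of 179 to 271 CPM for RNF43. TSPOAP1-AS1 was itself lower at pH 6.0 for 6 h (-1.84 ± 0.39, edgeR adjusted p = 5.32e-04), and its part in the RNF43 counts was not tested. SUPT4H1 shares 1.91% of the exonic bases of RNF43 at 4.44 to 8.08 CPM. A second annotated gene, AC004687.2, shares 57.6% of the exonic bases of RNF43 and is not among the rows used here. AC004805.1 covers 25.2% of the exonic bases of AXIN2 and had at most 1 read in any library. PRKG1-AS1 covers 9.61% of those of DKK1 and had at most 4 reads. SKP1 overlaps 2.09% of the exonic bases of TCF7 at 89.4 to 173 CPM and rose by 0.74 ± 0.10 at 6 h (edgeR adjusted p = 1.53e-06), and its part in the TCF7 counts was not tested.

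Time in saline was compared at each pH to place these differences. At pH 7.4, 4 of the 10 genes were higher at 6 h than at 3 h and none lower, beside 31.6% of all genes tested called in either direction, 17.2% higher and 14.4% lower. That none was lower depended on the fit. NKD1 was called lower in 5 of 8 alternative settings and in 3 of the 12 fits without 1 library. LGR5 was called lower in 4 of the 8 settings and in 1 of the 12 fits. DKK1 rose by 0.81 ± 0.13 (edgeR adjusted p = 8.28e-05) and LGR4 by 0.61 ± 0.08 (edgeR adjusted p = 7.73e-06). ZNRF3 rose by 0.54 ± 0.08 (edgeR adjusted p = 1.98e-05) and RNF43 by 0.32 ± 0.08 (edgeR adjusted p = 0.00270). After the length and GC correction the changes of ZNRF3 and RNF43 were 0.35 and 0.19, still called. AXIN2, FRAT1 and FRAT2 did not pass at pH 7.4, with values of -0.05 ± 0.09, 0.20 ± 0.18 and -0.04 ± 0.09 (edgeR adjusted p = 0.697, 0.427 and 0.761).

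At pH 6.0, 5 of the 10 were lower at 6 h than at 3 h and 1 was higher, beside 19.5% of all genes tested called, 10.9% lower and 8.64% higher. AXIN2 fell by 1.61 ± 0.11 (edgeR adjusted p = 2.96e-10), FRAT1 by 1.17 ± 0.26 (edgeR adjusted p = 0.00286) and FRAT2 by 0.70 ± 0.10 (edgeR adjusted p = 3.46e-05). RNF43 fell by 0.47 ± 0.08 (edgeR adjusted p = 1.18e-04). NKD1 fell by 0.53 ± 0.14 (edgeR adjusted p = 0.0127) and DKK1 rose by 0.55 ± 0.16 (edgeR adjusted p = 0.0184). The NKD1 call did not hold without pH 6.0 replicate 2 or 3 of 3 h or replicate 1 or 2 of 6 h (adjusted p from 0.0561 to 0.0708), nor the DKK1 call without pH 6.0 replicate 2 or 3 of 3 h or replicate 2 of 6 h (adjusted p from 0.0889 to 0.104). LGR4 and ZNRF3, which rose with time at pH 7.4, measured -0.16 ± 0.08 and -0.19 ± 0.08 at pH 6.0 and did not pass (edgeR adjusted p = 0.182 and 0.0929).

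**Figure D3:**
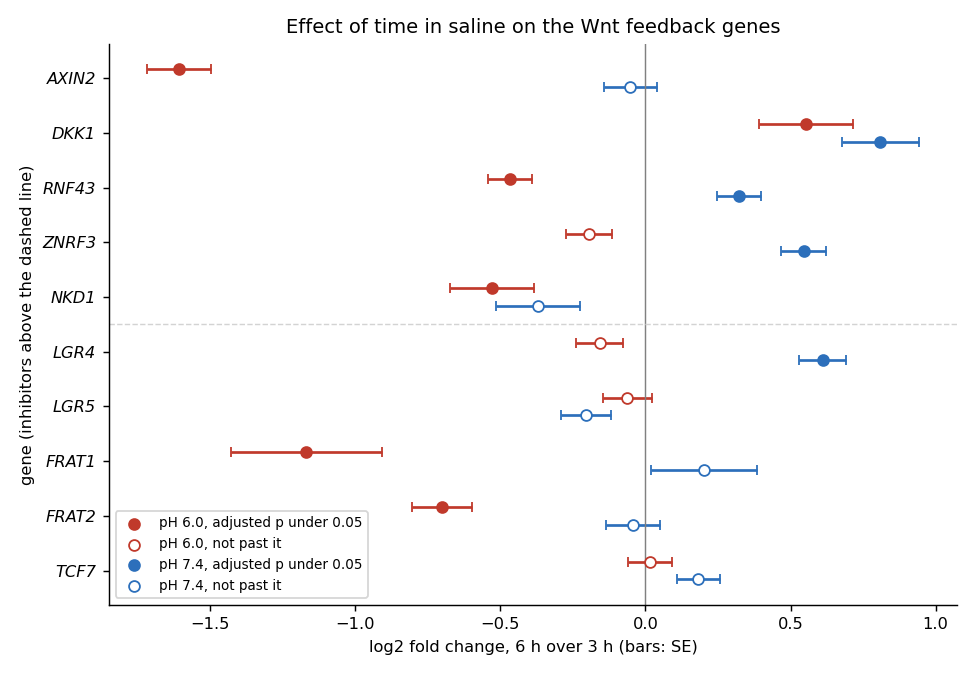
Log2 fold change of 6 h over 3 h in saline (horizontal axis) for each gene (vertical axis, inhibitors above the dashed line) at pH 6.0 in red and pH 7.4 in blue, with standard errors and filled points for an adjusted p under 0.05. AXIN2, FRAT1 and FRAT2 moved at pH 6.0 (-1.61, -1.17 and -0.70), ZNRF3 and LGR4 passed at pH 7.4 alone (0.54 and 0.61), and DKK1 lies right of 0 at both.

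The test of the pH effect at 6 h against that at 3 h was passed by 6 of the 10 genes, all with the lower value at 6 h, beside 29.4% of all genes tested in either direction, 16.3% lower and 13.1% higher. They were AXIN2, FRAT1, RNF43, LGR4, ZNRF3 and FRAT2. For AXIN2, FRAT1 and FRAT2 the pH 6.0 groups differed between the times while the pH 7.4 groups did not pass. For LGR4 and ZNRF3 the pH 7.4 groups differed and the pH 6.0 groups did not pass. RNF43 passed in both, in opposite directions. The tests at pH 6.0, at pH 7.4 and of the difference between them share libraries.

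Read by role, inhibitors and activators were not separated by direction. At 6 h, 4 of the 5 inhibitors were lower and 1 did not pass, with a median of -0.67, and 4 of the 5 receptors and activators were lower and 1 higher, with a median of -0.87. These counts include RNF43 and TCF7, whose calls held in only 3 and 2 of the 12 fits without 1 library. At 3 h, 2 inhibitors were lower and 1 higher, and 2 receptors and activators were lower. Over all genes tested, 25.1% were lower and 21.9% higher at 6 h, and 9.26% and 9.53% at 3 h. The mean log2 CPM of the inhibitors minus that of the receptors and activators was -0.63 ± 0.08 at pH 6.0 for 6 h, -0.62 ± 0.06 at pH 7.4 for 6 h, -0.57 ± 0.08 at pH 6.0 for 3 h and -0.72 ± 0.11 at pH 7.4 for 3 h (SD, n = 3 each). These values are a description over chosen genes and carry no test. The summed level per gene length of the 5 inhibitors was 49.9 ± 1.11 RPKM (the authors' reads per kilobase scaled to library size) at pH 6.0 for 6 h, 80.5 ± 1.56 RPKM at pH 7.4 for 6 h, 71.4 ± 2.68 RPKM at pH 6.0 for 3 h and 66.9 ± 4.90 RPKM at pH 7.4 for 3 h. For the 5 receptors and activators it was 92.1 ± 2.16, 136 ± 5.35, 109 ± 3.94 and 122 ± 6.98 RPKM in the same groups in that order (SD, n = 3). RNF43 alone held 33.7, 39.7, 49.5 and 33.4 RPKM of the inhibitor sum in that order, and LGR4 and LGR5 held most of the other sum. The higher mean inhibitor sum at pH 6.0 for 3 h thus holds the rise of RNF43 beside falls of AXIN2 and DKK1. The library sums overlapped at that time, at 68.9 to 74.3 RPKM at pH 6.0 and 63.2 to 72.5 RPKM at pH 7.4.

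By level per gene length, the order of the 10 genes differed among the groups. At pH 7.4 for 6 h LGR4 stood alone at the top at 66.5 ± 3.01 RPKM, above RNF43 at 39.7 ± 1.35 RPKM, LGR5 at 30.8 ± 2.53 RPKM and FRAT2 at 21.3 ± 0.720 RPKM, with no overlap between neighbours. At pH 6.0 for 6 h LGR5, LGR4 and RNF43 shared the top at 37.8 ± 1.61, 35.4 ± 1.98 and 33.7 ± 0.919 RPKM, with overlapping libraries between neighbours. At pH 6.0 for 3 h RNF43 led at 49.5 ± 2.40 RPKM, apart from LGR4 and LGR5 at 41.9 ± 3.21 and 41.9 ± 3.50 RPKM, which overlapped. At pH 7.4 for 3 h LGR4 led at 45.9 ± 4.62 RPKM, and LGR5 and RNF43, at 37.3 ± 3.91 and 33.4 ± 2.98 RPKM, overlapped.

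In the middle of the order, DKK1, TCF7, ZNRF3 and AXIN2 lay between 13.9 ± 1.26 and 12.2 ± 0.309 RPKM at pH 7.4 for 6 h, each overlapping the next. At pH 6.0 for 6 h the same 4 genes were spread out, with TCF7 at 11.0 ± 0.350, ZNRF3 at 7.85 ± 0.413, DKK1 at 4.29 ± 0.552 and AXIN2 at 1.87 ± 0.165 RPKM. AXIN2 was at place 9 of 10 at pH 6.0 for 6 h and at place 5 at pH 7.4 for 3 h, where it held 13.3 ± 1.29 RPKM. The lowest gene was FRAT1 at pH 6.0, at 0.631 ± 0.299 RPKM for 6 h and 1.48 ± 0.429 RPKM for 3 h. At pH 7.4 NKD1 was lowest, at 1.93 ± 0.252 RPKM for 6 h and 2.63 ± 0.384 RPKM for 3 h (SD, n = 3 throughout).

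**Figure D4:**
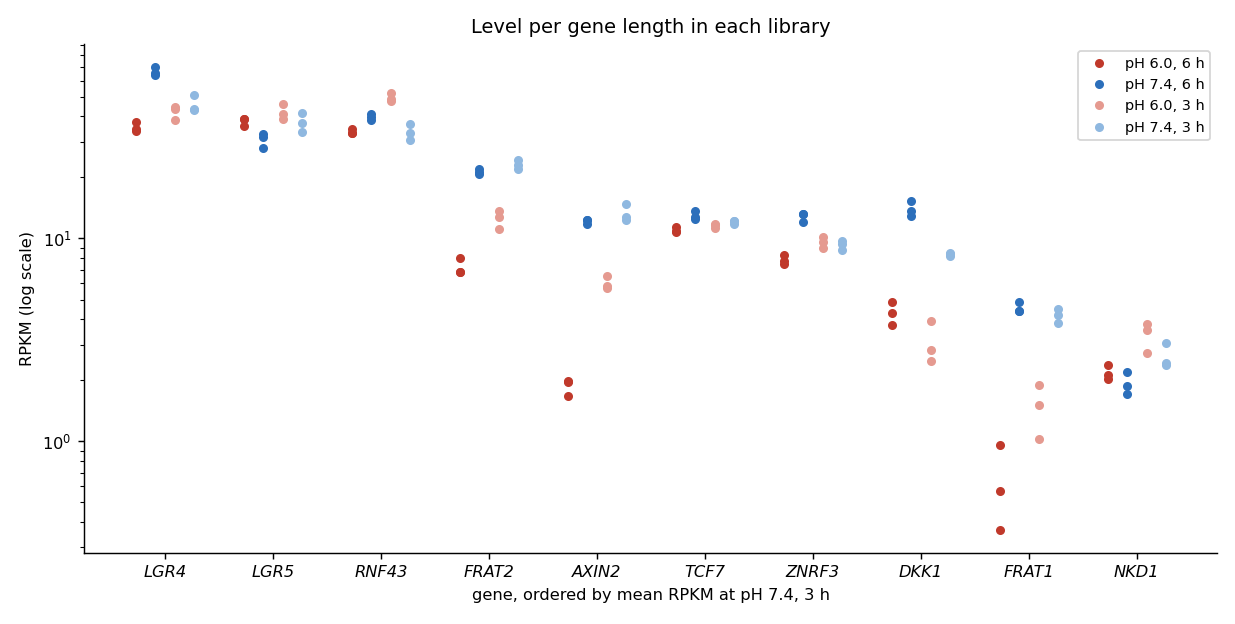
RPKM on a log scale (vertical axis) of each library for the 10 genes, ordered along the horizontal axis by their mean at pH 7.4 for 3 h, with a colour for each group. AXIN2 and FRAT1 span the widest range, down to 1.68 and 0.367 RPKM at pH 6.0 for 6 h, while TCF7 spans the narrowest.

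The ratios within pairs of related genes show how unevenly they changed. The RPKM ratio of LGR5 to LGR4 was 1.04, 1.14 and 1.03 at pH 6.0 for 6 h, against 0.501, 0.437 and 0.450 at pH 7.4 for 6 h. At 3 h it was 1.07, 1.03 and 0.902 at pH 6.0, against 0.951, 0.723 and 0.780 at pH 7.4, with overlap. The RNF43 to ZNRF3 ratio was 4.43, 4.28 and 4.18 at pH 6.0 for 6 h, against 2.89, 3.29 and 3.10 at pH 7.4 for 6 h. It was higher at pH 6.0 at 3 h too, at 5.32, 5.14 and 5.10, against 3.27, 3.78 and 3.77 at pH 7.4.

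The FRAT2 to FRAT1 ratio was 18.6, 12.03 and 8.42 at pH 6.0 for 6 h, against 4.53, 4.81 and 4.71 at pH 7.4 for 6 h. At 3 h it was 6.74, 10.8 and 9.01 at pH 6.0, against 5.44, 5.98 and 5.27 at pH 7.4. The pH 6.0 ratios were higher and more scattered, and the FRAT1 counts in them ranged down to 15 reads. A two-sided exact permutation test of the log2 ratio gave p = 0.1 for each of these pairs at each time, other than LGR5 to LGR4 at 3 h (exact p = 0.2). The smallest p that 3 libraries against 3 allow is 0.1, so none of the 12 ratio tests run could reach 0.05.

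**Figure D5:**
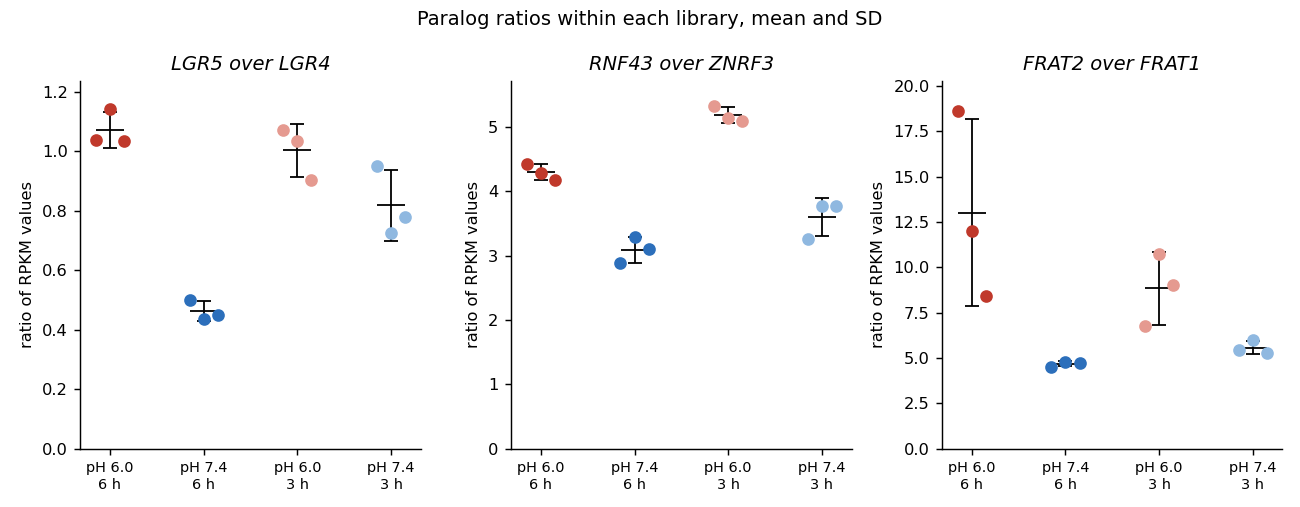
Ratio of RPKM values within each library (vertical axis, from 0) for 3 pairs of related genes, by group along the horizontal axis, with points for libraries and bars for the mean and SD (n = 3). The pH 6.0 libraries lie above the pH 7.4 libraries at 6 h in all 3 pairs, and at 3 h in all but LGR5 over LGR4, where they overlap.

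Over the 12 libraries the levels of some members ran closely together. The Pearson correlation of log2 CPM was 0.98 for AXIN2 with FRAT2, 0.98 for FRAT1 with FRAT2 and 0.95 for ZNRF3 with LGR4, and it was -0.87 for DKK1 with LGR5. These are descriptions, since the 12 libraries form 4 groups that drive them. The tested genes most like AXIN2 in this measure were DGCR8, ZBED5 and HPS6 (0.99 each). Those most like DKK1 were TIMM44, CYTH2 and LURAP1L (0.98 each). Those most like FRAT1 were SPRY1, GTF3C2 and FRAT2 (0.98 each). RNF43 was matched less closely, by MED12 (0.95), BCOR (0.94) and RPSAP52 (0.92).

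The sizes of change differed among genes of like pattern. These genes were chosen for their likeness over the same 12 libraries. Their directions therefore follow from the choice, and their p-values are no independent evidence. HPS6 was 6.48-fold lower at pH 6.0 for 6 h (-2.70 ± 0.12, edgeR adjusted p = 3.38e-14) and -0.97 ± 0.10 at 3 h (edgeR adjusted p = 5.38e-07), close to AXIN2 in both. DGCR8, with the highest correlation, was 1.93-fold lower at 6 h (-0.95 ± 0.08, edgeR adjusted p = 4.54e-09). SPRY1, an inhibitor of receptor tyrosine kinase signalling, was 4.19-fold lower at 6 h (-2.07 ± 0.13, edgeR adjusted p = 1.52e-11). MED12, a subunit of the Mediator kinase module, rose by 0.67 ± 0.10 at 3 h (edgeR adjusted p = 4.14e-05) and measured -0.11 ± 0.10 at 6 h (edgeR adjusted p = 0.353).

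Of 118 further genes of the pathway in the table, 82 were tested. At 6 h 32 of them were lower at pH 6.0, 13 higher and 37 did not pass, with a median of -0.15, where 25.1% of all genes tested were lower and 21.9% higher. At 3 h 10 were lower and 14 higher, with a median of -0.02, where the shares of all genes were 9.26% and 9.53%. The lists were chosen with earlier results of these data known, so their counts describe them and are no independent evidence of a direction.

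Around the ligand and receptor step, 4 of 11 tested ligand and secretion genes were higher at 6 h and 1 lower, and none passed at 3 h. Over all genes tested, 21.9% were higher and 25.1% lower at 6 h, and 18.8% passed at 3 h. WNT11, a ligand known mainly for signalling without β-catenin, measured 28.2 ± 0.250 CPM at pH 6.0 for 6 h and 11.8 ± 0.766 CPM at pH 7.4 for 6 h (SD, n = 3 each, 1.26 ± 0.11, edgeR adjusted p = 2.34e-09). WNT7B was higher too (1.53 ± 0.29, edgeR adjusted p = 1.41e-04), at a low level of 2.85 to 4.09 CPM at pH 6.0 and 1.07 to 1.34 CPM at pH 7.4. WNT10B reached at most 1.92 CPM in the groups compared at 6 h (1.12 ± 0.37, edgeR adjusted p = 0.0159), and WNT3 was lower (-0.42 ± 0.14, edgeR adjusted p = 0.0140). Without 1 library the WNT10B call held in 10 of 12 fits and the WNT3 call in 9 of 12.

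Of the 14 other Wnt receptors tested, 8 were lower at 6 h and none higher, where 25.1% of all genes tested were lower and 21.9% higher. At 3 h 5 were higher and 1 lower, where 9.53% of all genes were higher and 9.26% lower. FZD5, the most abundant Frizzled named here, measured 297 ± 4.97 CPM at pH 6.0 for 6 h and 449.6 ± 46.6 CPM at pH 7.4 for 6 h (-0.60 ± 0.10, edgeR adjusted p = 4.98e-05), and was higher at 3 h (0.37 ± 0.10, edgeR adjusted p = 0.0148). Its 6 h value was -0.33 after the length and GC correction, and its 3 h call held in 9 of the 12 fits without 1 library (adjusted p up to 0.101). FZD7 was lower at both times, by -1.41 ± 0.11 at 6 h (edgeR adjusted p = 6.03e-10) and -0.89 ± 0.10 at 3 h (edgeR adjusted p = 2.73e-06). FZD8 was lower at 6 h (-1.79 ± 0.33, edgeR adjusted p = 1.32e-04), with at most 0.883 CPM at pH 6.0. RYK, a receptor of the tyrosine kinase-like kind, was -0.31 ± 0.09 at 6 h (edgeR adjusted p = 0.00680), a call lost after the length and GC correction (-0.16, adjusted p = 0.121) and without replicate 2 of pH 6.0 for 6 h (adjusted p = 0.108). Of the 3 other extracellular or membrane inhibitors tested, TRABD2A (also called TIKI1), a protease that inactivates Wnt proteins, passed at 6 h (-0.37 ± 0.08, edgeR adjusted p = 4.28e-04).

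Of the 12 tested genes of the destruction complex and its control, 9 were lower at 6 h and none higher, with a median of -0.52. Among all genes tested 25.1% were lower and 21.9% higher at that time. At 3 h 2 were lower and 1 higher, where the shares of all genes were 9.26% and 9.53%. APC, the scaffold lost in most colon cancers, measured 42.9 ± 2.39 CPM at pH 6.0 for 6 h and 84.2 ± 7.38 CPM at pH 7.4 for 6 h (-0.97 ± 0.12, edgeR adjusted p = 1.18e-06). GSK3B, the kinase that FRAT proteins bind, measured 93.6 ± 2.81 CPM at pH 6.0 and 167 ± 2.64 CPM at pH 7.4 (-0.84 ± 0.08, edgeR adjusted p = 8.84e-09). AMER1, which brings APC to the membrane, and RNF146, the ligase that degrades AXIN after its modification by tankyrase, were lower by -0.89 ± 0.11 (edgeR adjusted p = 9.15e-07) and -0.71 ± 0.10 (edgeR adjusted p = 3.05e-06). After the length and GC correction the values at 6 h were -0.63 for APC, -0.55 for GSK3B and -0.57 for AMER1, all still called. With time at pH 7.4, 7 of these 12 genes rose and none fell, where 17.2% of all genes rose. For 9 of the 12 the pH effect at 6 h was lower than that at 3 h, as for 16.3% of all genes.

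Among the 11 tested genes of Dishevelled, its kinases and its inhibitors, 4 were lower at 6 h and none higher, where 25.1% of all genes were lower. DVL3 was -0.46 ± 0.07 at 6 h (edgeR adjusted p = 1.68e-05), CSNK1G1 -1.02 ± 0.12 (edgeR adjusted p = 5.46e-07) and CSNK1G3 -0.34 ± 0.08 (edgeR adjusted p = 0.00234). CSNK1D, at -0.20 ± 0.08 (edgeR adjusted p = 0.0455), held its call in 3 of the 12 fits without 1 library. After the length and GC correction DVL3 was -0.26 and CSNK1G3 -0.22, both still called, and CSNK1D was 0.04 (adjusted p = 0.633). Of β-catenin and its nuclear partners, 4 of 14 were higher and 4 lower at 6 h, and 5 were higher at 3 h. Of all genes tested, 21.9% were higher and 25.1% lower at 6 h, and 9.53% were higher at 3 h. The co-repressor TLE1 was higher at 6 h (0.48 ± 0.09, edgeR adjusted p = 1.57e-04), while its relative TLE4 (-0.76 ± 0.12, edgeR adjusted p = 1.40e-05), the co-activator BCL9L (-0.35 ± 0.09, edgeR adjusted p = 0.00208) and the remodeller CHD8 (-0.41 ± 0.10, edgeR adjusted p = 0.00205) were lower. The calls of BCL9L and CHD8 did not hold after the length and GC correction, at -0.011 (adjusted p = 0.891) and -0.10 (adjusted p = 0.254).

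Of 17 other Wnt targets and crypt genes tested, 5 were lower and 5 higher at 6 h, shares near the 25.1% and 21.9% of all genes. At 3 h 4 were lower and 1 higher, where the shares of all genes were 9.26% and 9.53%. MYC, a β-catenin target in colon cancer cells, measured 22.9, 26.2 and 24.3 CPM at pH 6.0 for 6 h, against 198, 205 and 199 CPM at pH 7.4 for 6 h (-3.03 ± 0.10, edgeR adjusted p = 9.71e-16). At 3 h it measured 71.9, 50.9 and 58.1 CPM at pH 6.0, against 194, 186 and 201 CPM at pH 7.4 (-1.68 ± 0.10, edgeR adjusted p = 4.36e-11). MYC stepped down with time at pH 6.0 as AXIN2 did. SOX9, a crypt transcription factor, was -1.63 ± 0.08 at 6 h (edgeR adjusted p = 4.81e-13) and -0.59 ± 0.08 at 3 h (edgeR adjusted p = 2.39e-05), and CCND2 was -0.73 ± 0.10 at 6 h (edgeR adjusted p = 6.50e-06). FOSL1, an AP-1 subunit, went the other way, at 122 ± 16.4 CPM at pH 6.0 for 6 h and 33.2 ± 3.49 CPM at pH 7.4 for 6 h (SD, n = 3 each, 1.87 ± 0.12, edgeR adjusted p = 6.84e-11).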

How the data were processed

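Gene expression was measured by RNA sequencing of 12 libraries of T84 cells. The deposited table holds whole read counts per Ensembl gene made by the authors, and per-library files hold RPKM values made by the authors. Per the submitters' processing notes, STAR and CASAVA were used on hg19. Their versions, the annotation, the counting program and its strand setting were not given in the sources used here. Every test used the deposited counts. The RPKM values served only to compare levels between genes and for ratios.

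The counts of all 12 libraries were fitted as 4 groups in edgeR 4.0.16 (R 4.3.3) with TMM factors, edgeR's default expression filter and robust quasi-likelihood F tests, with Benjamini-Hochberg adjustment over the 15630 genes left. The standard error is the size of the log2 fold change divided by the square root of F. Correlations used log2 CPM with a prior count of 2. The procedure was tested on simulated counts. Pairs of libraries within a group differed beyond sampling noise, and the common biological coefficient of variation was 9.29%. The low counts of FRAT1 at pH 6.0 for 6 h, 15 to 39 reads, make its values the least precise.

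Of the 48162 genes, 45342 had a symbol. The text names all 10 members, for each pathway list up to 4 called genes with the smallest p at 6 h, and the 3 genes most like AXIN2, DKK1, FRAT1 and RNF43 by Pearson correlation. SKP1 and the overlapping genes were named for their overlap. The members and lists were chosen with earlier results of these data known. Alternative fits used DESeq2 1.42.0, edgeR with median-of-ratios factors or library totals, all genes with a read, only genes at 5 CPM or more in 3 libraries, the replicate number as a covariate, or just the libraries being compared. Each library was also omitted once, and a threshold of 0.01 was tried. Offsets for gene length and GC content (natural splines, 5 degrees of freedom) were added after seeing the data.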

Additional observations from a re-analysis of the deposited data

Results flagged for a closer look

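The pH effect at 6 h minus the pH effect at 3 h, on the log2 scale, passed edgeR's test of the difference for 6 of the 10 feedback genes. It was -1.55 for AXIN2, -1.37 for FRAT1, -0.79 for RNF43, -0.77 for LGR4, -0.74 for ZNRF3 and -0.66 for FRAT2.

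The same difference passed for these other pathway genes named in the report. They were named for a small p of the pH effect at 6 h, which is part of this difference, so the choice itself favours passing. Of all 82 pathway genes tested, 28 passed with the lower value at 6 h and 4 with the higher. Among all genes tested the shares were 16.3% and 13.1%. The difference was 1.51 for WNT10B and 0.98 for WNT11 among the ligands. Among the receptors and the membrane protease it was -0.97 for FZD5, -0.52 for FZD7, -1.41 for FZD8 and -0.41 for TRABD2A. Around the destruction complex it was -0.95 for APC, -0.55 for GSK3B, -1.10 for AMER1 and -0.58 for RNF146. It was -0.66 for CSNK1G1 and -0.48 for CSNK1G3, and -0.72 for BCL9L, -0.67 for TLE4 and -0.71 for CHD8. Among the targets it was -1.35 for MYC, -1.04 for SOX9, -0.57 for CCND2 and 1.26 for FOSL1. After the length and GC correction the calls of GSK3B (-0.15, adjusted p = 0.228), CSNK1G1 (-0.23, adjusted p = 0.269), CCND2 (-0.23, adjusted p = 0.158) and WNT10B (1.31, adjusted p = 0.0640) were lost. Still called after it, but over 1.5 times smaller, were ZNRF3 (-0.43), APC (-0.37), FZD5 (-0.64), AMER1 (-0.68), CSNK1G3 (-0.30), BCL9L (-0.32) and CHD8 (-0.28, adjusted p = 0.0465). The WNT10B difference held its call in 6 of the 12 fits without 1 library. FZD8 lost its call without replicate 3 of pH 7.4 for 6 h or replicate 2 of pH 6.0 for 6 h (adjusted p up to 0.0791), and FZD7 without replicate 1 of pH 6.0 for 6 h (adjusted p = 0.0672).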

How the results depend on the processing

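Under every alternative the number of feedback genes called stayed within 1.5 times its value in the report. Over the fits without 1 library it was 7 to 9 for pH at 6 h, 5 to 6 for pH at 3 h, 4 to 5 for time at pH 7.4, 4 to 6 for time at pH 6.0 and 6 in all for the difference of the pH effects. Over the other settings it was 7 to 9, 5 to 6, 4 to 6, 4 to 8 and 6 to 7. After the length and GC correction NKD1 gained calls for pH at 6 h (adjusted p = 0.0299) and at 3 h (0.39, adjusted p = 0.0406). With time at pH 7.4 NKD1 (-0.43, adjusted p = 0.0210) and LGR5 (-0.32, adjusted p = 0.00170) gained one. LGR5 also gained one for the difference of the pH effects (0.33, adjusted p = 0.0230). Of the other named pathway genes, APC, RYK, WNT11, TLE1 and CCND2 gained one for pH at 3 h. The log2 values given next changed sign, and none of them passed the test. With a filter of 5 CPM, pH at 3 h was 0.0042 for TCF7, 0.0046 for WNT3 and 0.0092 for APC. With the length and GC correction it was 0.020 for WNT3 at 3 h, 0.028 for RNF43, 0.012 for TCF7 and 0.039 for CSNK1D at 6 h, 0.14 for FRAT2 with time at pH 7.4, 0.0011 for LGR5 with time at pH 6.0 and 0.013 for TCF7 in the difference of the pH effects. With total counts alone TCF7 was -0.071 with time at pH 6.0, where the median of all genes moved to -0.10. Without 1 library, pH at 3 h ran from -0.045 to 0.00017 for TCF7, from -0.12 to 0.039 for WNT3, from -0.15 to 0.11 for APC, from -0.18 to 0.045 for TLE4 and from -0.0030 to 0.082 for TRABD2A. Likewise AXIN2 ran from -0.098 to 0.017 with time at pH 7.4, TCF7 from -0.012 to 0.056 with time at pH 6.0, and DKK1 from -0.38 to 0.024 in the difference of the pH effects. The cause of these changes was not tested.

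Of all genes, 2937 were called for pH at 3 h, 1648 to 3617 without 1 library and 1345 at an adjusted p under 0.01. For time at pH 6.0, 3050 were called, 1915 to 3408 without 1 library and 1571 at an adjusted p under 0.01. At that threshold 2942 in place of 4942 were called for time at pH 7.4, and 2536 in place of 4589 for the difference of the pH effects. Libraries with the same replicate number deviated together by -0.05 to 0.23 (Pearson correlation, 12 pairs), and those with other numbers by -0.19 to 0.14. Since not every same-number pair was over 0.1 and no label ties the numbers to a shared culture or day, the numbers were not taken to pair the libraries. With the replicate block, 9 feedback genes were called for pH at 6 h, 5 at 3 h, 6 with time at pH 6.0, 6 for the difference and 5 with time at pH 7.4, where NKD1 was added (-0.37, adjusted p = 0.0413). Low counts limit FRAT1 at pH 6.0, WNT7B, WNT10B and FZD8.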
